A study of Mus musculus with 8 samples.

Results

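The change of the Cdc73 genotype difference between 24 and 48 h was measured in mouse acute myeloid leukaemia lines. For each gene, the log2 ratio of floxed to wild type cells at 24 h was subtracted from the same ratio at 48 h. A difference between the lines that stays the same over time cancels in this subtraction. The result was then split into the movement of the floxed line and the movement of the wild type line from 24 to 48 h. All 11158 genes of 1 FPKM or more in at least 1 group were members, of 23361 in the deposited table, after 27 rows whose symbols had become date numbers were left out. FPKM is the number of sequenced fragments per kilobase of transcript, scaled to the size of the library. At the edge of the filter, P2ry6 entered with a highest value of 1.002 FPKM and Gm10069 at 0.9996 FPKM did not.

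Poly(A) RNA came from leukaemia lines of strain 129S6, derived from bone marrow and carrying the fusion oncogene MLL-AF9 and the inducible recombinase CreERT2. The floxed line was Cdc73fl/fl CreERT2 and the other line Cdc73 +/+ CreERT2, and both were given 7.5 nM 4-hydroxytamoxifen (4OHT) for 24 or 48 h. The 4 groups had 2 biological duplicates each, 8 libraries in all, and whether duplicates came from separately made lines is not given. Both lines therefore share the oncogene, the recombinase and the drug, and no untreated library was analysed here. The deposited table has 1 FPKM value per gene and group, with no spread between duplicates. The change over time thus has no test, and sizes are given in its place. A gene is said to be called at a time where the authors' q-value of the comparison between the lines is below 0.05 at that time.

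Cdc73 is a subunit of the PAF1 complex, which accompanies RNA polymerase II along genes and is needed for ubiquitination of histone H2B. In leukaemias driven by MLL fusions, the complex binds MLL proteins and takes part in keeping Hox genes on. CreERT2 enters the nucleus on binding 4OHT and removes the floxed part of the gene, after which protein already made has to decay.

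Cdc73 was at nearly the same level at both times in each line. It stood at 26.2 FPKM in wild type and 5.96 FPKM in floxed cells at 24 h, and at 26.9 and 5.45 FPKM at 48 h. Its change of difference was -0.14 on the log2(FPKM + 1) scale, the scale of all changes and movements given here. Another gene shares its locus entry, so the split of reads there is uncertain. The gene occupies 143598800 to 143702893 on the minus strand of chromosome 1 (mm10). Of the 6 PAF1 complex genes, none had a change of 2-fold. Paf1, which gives the complex its name, had a change of 0.33, Leo1 of 0.25 and Wdr61 of -0.33.

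From 24 to 48 h the floxed line moved and the wild type line moved little. The median size of the floxed movement over all members was 0.32, and that of the wild type movement 0.06. The change of difference had a median of -0.07 and a median size of 0.35. It reached 2-fold upward (1 or more on the log2 scale) in 722 genes, which is 6.47% of the members, and 2-fold downward in 204 genes, or 1.83%, together 8.30%. With the groups rescaled to the same FPKM sum these counts were 602 and 353, since that rescaling moved the median over all genes from -0.07 to -0.18. With a pseudocount of 5 FPKM they were 340 and 89. The filter admits a gene through 1 group alone. Genes that reach 1 FPKM only in floxed cells at 48 h are favoured to have upward changes by this choice. Of the 507 members with a mean under 1 FPKM over the groups, 75 passed 2-fold upward and 3 downward, with a median change of 0.39. Ascl3, with a change of 1.004, was the last inside the upward threshold and Fscn2, with 0.9997, the first outside. Atl3, at -0.9997, lay just outside the downward threshold and Pdia5 just inside. Among the downward genes, 72 were small RNAs such as microRNAs and small nucleolar RNAs, which poly(A) libraries measure poorly, and 132 genes were left without them. The upward genes held 67, with 655 left. All 11158 members held 207 small RNAs, so most small RNAs passed 2-fold in 1 direction or the other.

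The floxed line led most of the large changes. A change was taken as led by 1 line where that line moved at least 2 times as far as the other, and as opposed where both moved by similar amounts in opposite directions. Of the 722 upward genes, 567 were led by the floxed line (78.5%), 112 were opposed (15.5%), 41 were led by the wild type line (5.68%) and 2 had parallel movements. Of the 204 downward genes, 166 were led by the floxed line (81.4%), 25 by the wild type line and 13 were opposed. Each of those 25 was under 10 FPKM in every group, shared its locus entry, or was a small RNA or clone-type symbol. The median movements of the upward genes were 1.18 in floxed and -0.15 in wild type cells. Those of the downward genes were -1.05 and 0.11. Over all members the floxed movement reached 2-fold upward in 536 genes (4.80%) and downward in 153 (1.37%), while the wild type movement did so in 42 (0.376%) and 60 (0.538%).

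**Figure D1:**
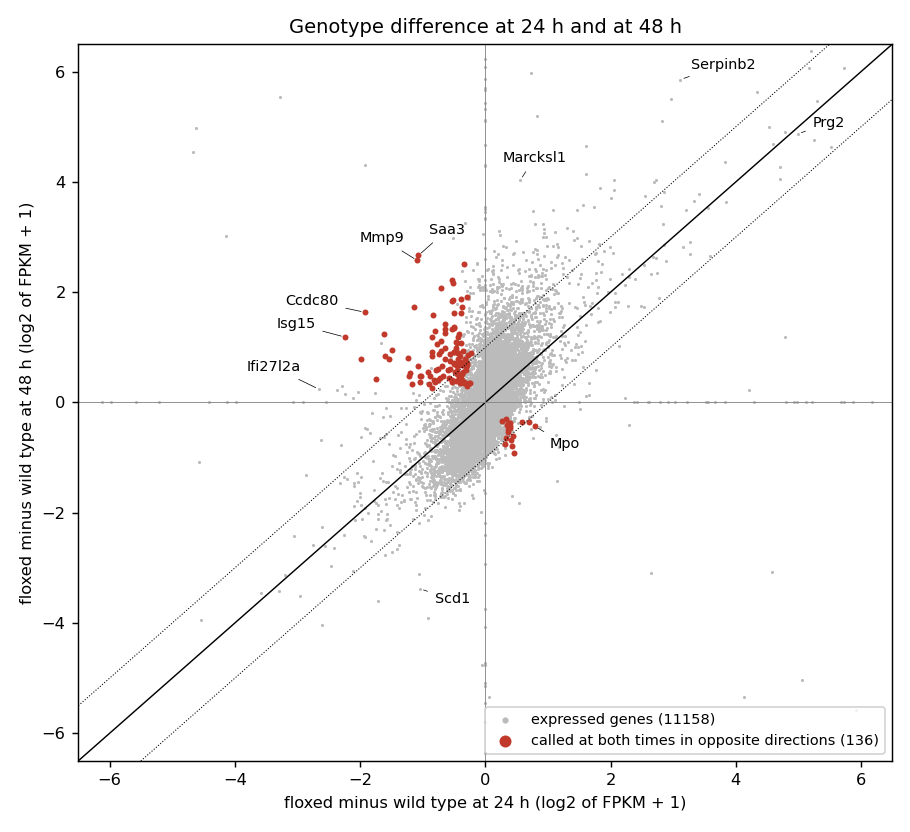
Genotype difference of each expressed gene at 24 h (x axis) and at 48 h (y axis), both as log2 of FPKM + 1, floxed minus wild type. The solid line marks an equal difference at both times, the dotted lines a 2-fold change of it, and red points the 136 genes called at both times in opposite directions. Most red points lie at the upper left, and 21 genes fall outside the axes.

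Most calls at 48 h were absent at 24 h. Of the members, 3788 were called at 48 h only, 558 at 24 h only and 2343 at both times in the same direction. Of those 2343, 1961 had the larger difference at 48 h and 382 the larger difference at 24 h. Their median ratio of the 24 h to the 48 h difference was 60.9%. A further 136 genes (1.22%) were called at both times in opposite directions, 118 of them lower and then higher in floxed cells (1.06%) and 18 the reverse (0.161%). The remaining 4333 genes had no call. A call at 1 time alone does not show that the difference changed, because that change has no test.

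Changes were ranked among genes of 10 FPKM or more in some group with an unshared locus entry. Small RNAs and clone-type symbols were left out of the ranking. The largest upward changes included genes of maturing neutrophils, monocytes and the acute phase response. Saa3, an acute phase serum amyloid protein, went from 11.8 to 2.09 FPKM in wild type cells and from 5.12 to 18.6 FPKM in floxed cells, a change of 3.73. The lines thus crossed, with the floxed line lower at 24 h and higher at 48 h. Mmp9, a gelatinase stored in neutrophil granules, stood at 9.90 and 7.01 FPKM in wild type cells and at 4.12 and 46.7 FPKM in floxed cells. Nearly all of its change of 3.66 came from the floxed line, whose level was 11.3-fold higher at 48 h. S100a9, a calcium-binding protein abundant in neutrophils, went from 2574 to 1993 FPKM in wild type cells and from 1166 to 6618 FPKM in floxed cells, a change of 2.87. Lcn2, the iron-siderophore binding lipocalin of neutrophils, was lower in floxed than in wild type cells at 24 h (80.5 against 117 FPKM) and higher at 48 h (445 against 94.7 FPKM). Wfdc17, a small secreted protein with a protease inhibitor domain, crossed in the same way, at 157.5 and 99.3 FPKM in wild type and 95.5 and 422.5 FPKM in floxed cells.

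Other genes had large upward changes without calls in opposite directions at the 2 times. Marcksl1, which binds actin at the cell cortex, stood at 32.3 and 34.4 FPKM in wild type cells and at 48.1 and 578 FPKM in floxed cells. The genotype ratio went from 1.49-fold to 16.8-fold, with a change of 3.47 and a wild type movement of 0.09. Lyz2, the lysozyme of myeloid cells, had no call at 24 h, when it stood at 1003 FPKM in wild type and 916 FPKM in floxed cells. At 48 h it stood at 587 and 3333 FPKM, and its change of 2.63 held a floxed movement of 1.86 and a wild type movement of -0.77. Lyz1 moved likewise, with a change of 2.66. Plek, a substrate of protein kinase C in blood cells, stood at 26.7 and 14.3 FPKM in wild type and at 31.6 and 125 FPKM in floxed cells. Serpinb2, an inhibitor of plasminogen activators, went from 15.7 to 92.0 FPKM in floxed cells and stayed under 1 FPKM in wild type cells. Ifi27l2a was also among the 12 largest and is described with the interferon response genes.

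**Figure D2:**
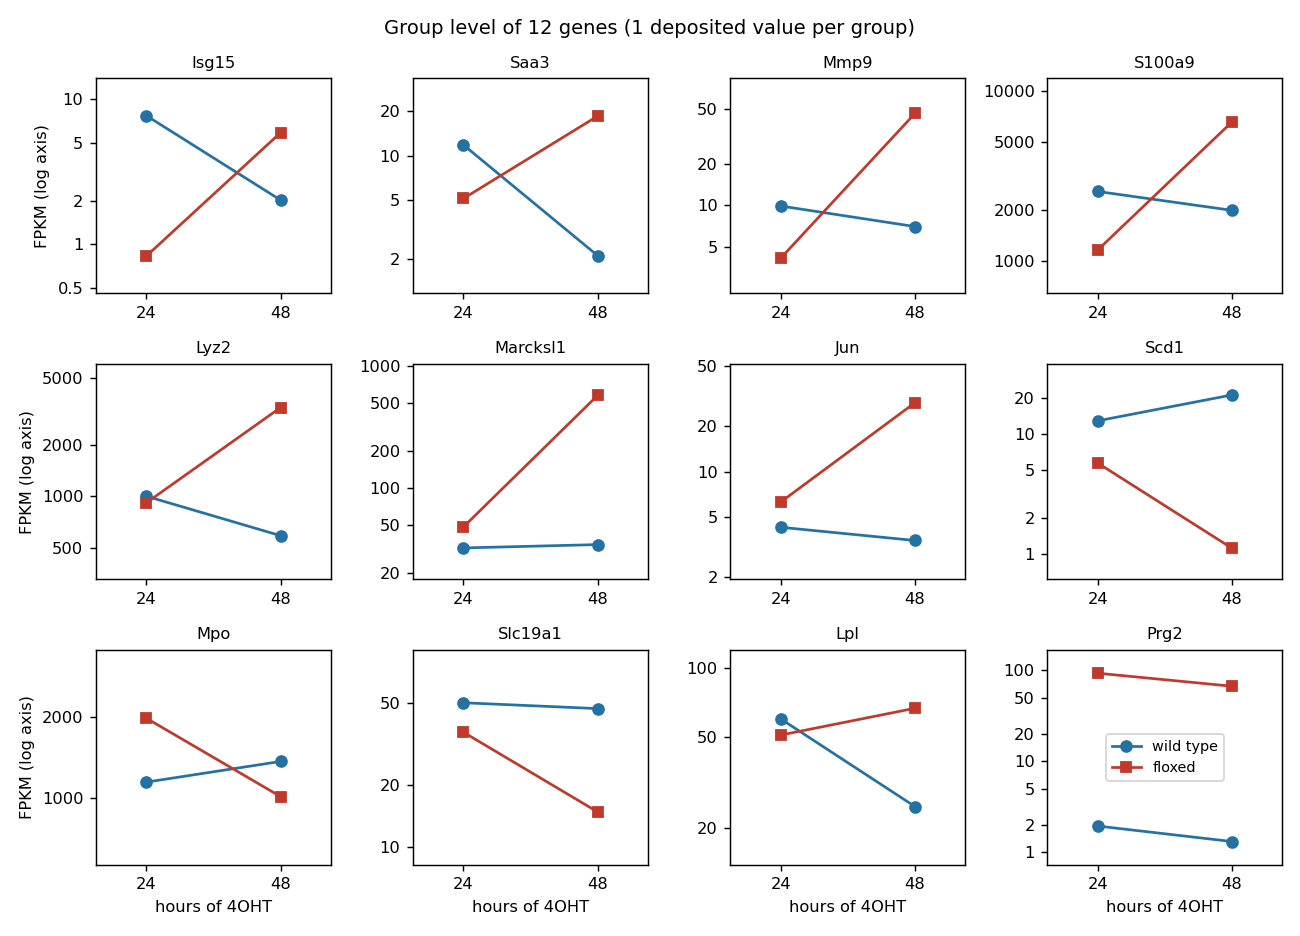
Deposited FPKM (log axis, which differs between panels) of 12 genes at 24 and 48 h of 4OHT in wild type (blue circles) and floxed cells (red squares), 1 value per group and no error. The lines cross in Isg15, Saa3, Mmp9, S100a9, Lyz2, Mpo and Lpl, diverge in Marcksl1, Jun, Scd1 and Slc19a1, and run side by side in Prg2.

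The largest downward changes, ranked among the same genes as the upward ones, were those of the desaturase genes Scd1 and Fads2. Scd1, which desaturates fatty acids, went from 12.8 to 21.1 FPKM in wild type cells and from 5.72 to 1.12 FPKM in floxed cells, a change of -2.34. Fads2 and Fads1, desaturases of polyunsaturated fatty acids, had changes of -1.91 and -1.28, and neither was called at 24 h. Fads2 stood at 36.6 and 54.5 FPKM in wild type cells and at 34.7 and 12.99 FPKM in floxed cells. Wild type and floxed cells moved apart in all 3 genes. Igfbp4, which binds insulin-like growth factors, went from 149.9 to 49.2 FPKM in floxed cells while wild type cells stood at 198 and 183. Spred1, an inhibitor of Ras signalling, went from 10.3 to 3.28 FPKM in floxed cells against 14.1 and 15.5 FPKM in wild type cells. Impdh1, an enzyme of guanine nucleotide synthesis, had a change of -1.40, the adenylate kinase gene Ak4 of -1.54, and the transcriptional coregulator gene Cited4 of -1.56. Ms4a3, a surface protein of granulocyte and monocyte progenitors, stood at 709 and 725 FPKM in wild type cells and at 878 and 373 FPKM in floxed cells. Fkbp11, Slco3a1 and B4galt4 completed the 12, with changes of -1.26, -1.48 and -1.26.

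Gene lists of known function were used to describe the change of difference by group of genes. The members of each list are described by counts and medians, beside the 6.47% upward, the 1.83% downward and the median of -0.07 over all members. The lists were written with earlier results of these data known and are not independent evidence of their direction.

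**Figure D3:**
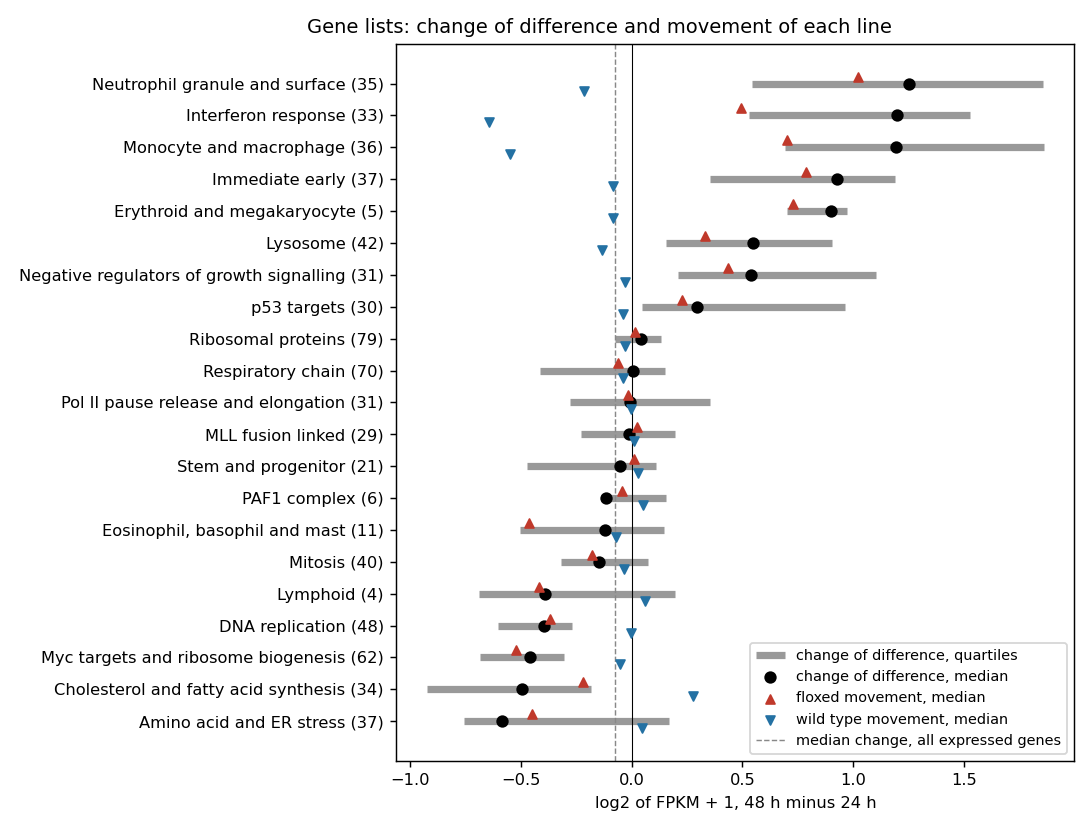
Change of the genotype difference in 21 gene lists (expressed members in brackets): black points are medians and grey bars quartiles over genes, in log2 of FPKM + 1, 48 h minus 24 h. Red and blue triangles are the median movements of floxed and wild type cells, and the dashed line is the median change of all expressed genes. Neutrophil, interferon and monocyte genes lie highest, and amino acid, lipid and growth genes lowest.

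Interferon response genes had upward changes to which both lines contributed. Of 33 expressed members of 40 listed, 20 had an upward change of 2-fold (60.6%) and 0 a downward one, with a median of 1.20. With a pseudocount of 5 FPKM the count was 8 and the median 0.47, and the median was 0.69 with a filter of 5 FPKM and 0.75 with plain ratios over genes of 1 FPKM or more in all groups. The median movement was 0.50 in floxed cells and -0.64 in wild type cells. All 33 members were lower at 48 h than at 24 h in wild type cells, and 27 were higher at 48 h in floxed cells. The former count was 33 under each of the 3 rescalings, and the latter between 26 and 28. Of the 20 upward members, 14 were opposed, 5 were led by the wild type line and 1 by the floxed line. By the authors' q, 9 of the 33 were called in opposite directions at the 2 times, against 1.22% of all members. Another 7 were called at both times in the same direction with the larger difference at 24 h, and 6 at 24 h only. Over all 11158 members these were 382 and 558. Of the rest, 4 were called at 48 h only, 1 at both times with the larger difference at 48 h, and 6 at neither.

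Isg15, a ubiquitin-like protein conjugated to other proteins in the interferon response, stood at 7.67 and 2.02 FPKM in wild type cells and at 0.831 and 5.86 FPKM in floxed cells. Its change was 3.43. Ifi27l2a, an interferon-induced mitochondrial protein gene, went from 40.0 to 10.9 FPKM in wild type cells and from 5.49 to 12.99 FPKM in floxed cells. The genotypes were 7.28-fold apart at 24 h and had no call at 48 h. Irf7, a transcription factor that amplifies interferon production, went from 7.002 to 1.76 FPKM in wild type and from 0.543 to 2.21 FPKM in floxed cells. It too had a call at 24 h only. Zbp1, a sensor of nucleic acids, stood at 5.66 and 3.004 FPKM in wild type and at 1.20 and 6.19 FPKM in floxed cells. Ifi204, another sensor of nucleic acids and no member of the list, crossed as well, at 4.79 and 1.28 FPKM against 0.886 and 4.37 FPKM.

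**Figure D4:**
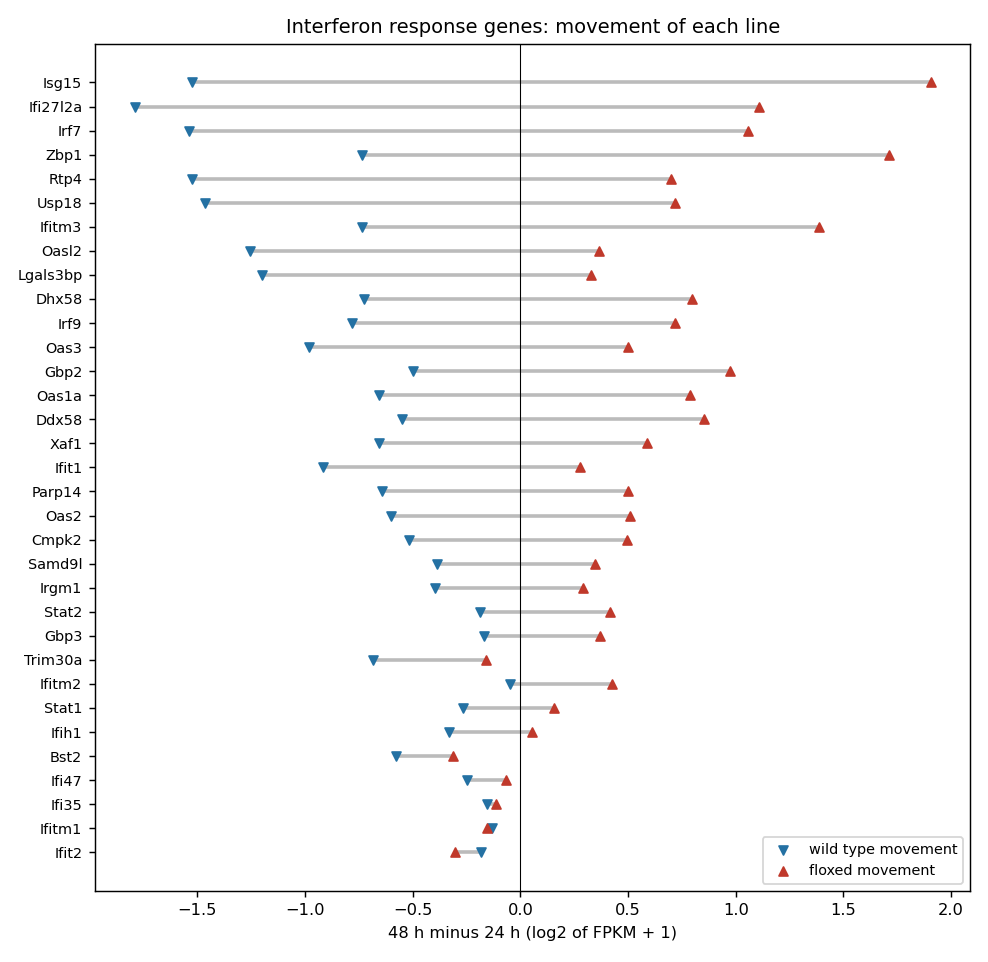
Movement from 24 to 48 h of the 33 expressed interferon response genes in wild type (blue) and floxed cells (red), in log2 of FPKM + 1. All blue points lie below 0 and 27 red points above it.

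Promoter sequence was read for 3 lists whose known regulators bind a defined motif, to show the letters behind the group names. RefSeq promoters (GRCm38.p6, 250 bases before the gene start) were found for 8239 expressed genes. The core of the interferon-stimulated response element, 2 copies of GAAA with 2 bases of any kind between them, was searched on both strands, with overlapping matches allowed. It was present in 11 of 25 interferon response genes with a promoter (44.0%), in 269 of the 8239 expressed genes (3.27%) and in 978 of all 32851 promoters (2.98%). Among genes with an upward change of 2-fold it was in 33 of 468 (7.05%), and among those with a downward change in 3 of 88 (3.41%). The promoters of the 2 list members with the largest change that hold it are shown with the matches in capitals. Isg15 (chr4:156200819-156201068, minus strand) has 3 overlapping matches, and Oas3 (chr5:120777660-120777909, minus strand), an oligoadenylate synthetase, has 1.
Isg15: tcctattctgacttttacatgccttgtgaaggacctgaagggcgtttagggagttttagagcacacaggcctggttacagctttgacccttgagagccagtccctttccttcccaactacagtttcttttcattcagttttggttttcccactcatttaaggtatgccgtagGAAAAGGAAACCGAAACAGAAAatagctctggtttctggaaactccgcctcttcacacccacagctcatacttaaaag
Oas3: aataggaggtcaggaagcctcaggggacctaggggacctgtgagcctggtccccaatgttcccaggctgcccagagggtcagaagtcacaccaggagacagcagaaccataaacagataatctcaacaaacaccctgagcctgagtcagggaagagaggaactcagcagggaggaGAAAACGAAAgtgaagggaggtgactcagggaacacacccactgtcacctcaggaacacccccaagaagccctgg
The change of Oas3 was 1.48, with a wild type movement of -0.98 and a floxed movement of 0.50. A match describes the letters only and does not show that a factor is bound.

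Neutrophil genes had a median change of 1.253, close to those of the interferon and monocyte lists, and the order of the 3 lists differed between scalings. Of 35 expressed members, 22 had an upward change of 2-fold (62.9%) and 1, Mpo, a downward one. The floxed line led 18 of the 22, and the median movements were 1.02 in floxed and -0.21 in wild type cells. Stfa3, a stefin that blocks cysteine proteases, was already 340 against 42.7 FPKM at 24 h and stood at 1577 against 33.96 FPKM at 48 h in floxed and wild type cells. Mpo, the myeloperoxidase of primary granules, which form at the promyelocyte stage, went the other way. It stood at 1145 and 1368 FPKM in wild type cells and at 1986 and 1011 FPKM in floxed cells, so it was called higher at 24 h and lower at 48 h. Mpo was thus turned in the opposite direction to the later granule genes Mmp9 and Lcn2. Its calls lay near the threshold, with q of 0.0238 at 24 h and 0.0329 at 48 h. This 1 primary granule gene does not show a split by granule class. Mmp8, a collagenase of later granules, had a change of 1.76 that was led by the wild type line, at 6.67 and 2.27 FPKM there and 12.8 and 18.9 FPKM in floxed cells.

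Monocyte and macrophage genes had upward changes made up of both movements. Of 36 expressed members, 22 had an upward change of 2-fold (61.1%) and 0 a downward one, with a median of 1.19. In wild type cells 34 of the 36 were lower at 48 h (32 when rescaled to the same sum), with a median movement of -0.55, and in floxed cells 33 were higher, with a median of 0.70. Of the 22, 9 were led by the floxed line, 9 were opposed and 4 were led by the wild type line. Mpeg1, a pore-forming protein of macrophages, stood at 64.9 and 33.9 FPKM in wild type and at 44.9 and 126 FPKM in floxed cells. Cd14, a co-receptor for lipopolysaccharide, went from 21.3 to 96.7 FPKM in floxed cells, against 22.9 and 20.3 FPKM in wild type cells. By the authors' q, 8 of the 36 were called in opposite directions at the 2 times, against 1.22% of all members.

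Lysosome genes followed with smaller changes. Of 42 members, 9 passed 2-fold upward (21.4%) and 0 downward, with a median of 0.55, and 36 had a change above 0 (32 when rescaled to the same sum). Ctsd, a protease of lysosomes, stood at 583 FPKM in wild type and 587 FPKM in floxed cells at 24 h, with no call. At 48 h it stood at 511 FPKM in wild type and 2102 FPKM in floxed cells. Ctss, a cathepsin of antigen-presenting cells, had a change of 1.72, with a wild type movement of -1.04 and a floxed movement of 0.68. Both are also in the monocyte list.

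**Figure D5:**
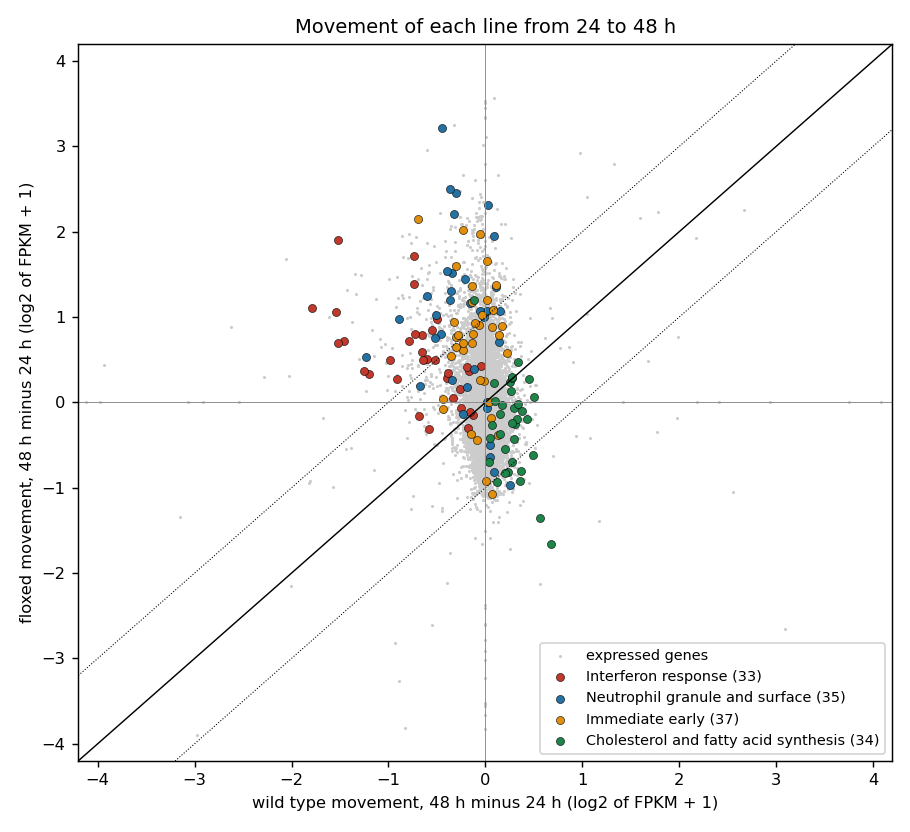
Movement of wild type cells (x axis) and of floxed cells (y axis) from 24 to 48 h in log2 of FPKM + 1, for all expressed genes (grey) and 4 gene lists, with 67 genes outside the axes. The solid line marks equal movement and the dotted lines a 2-fold change of the difference. Immediate early genes spread along the floxed axis, interferon response genes lie to the upper left, and lipid synthesis genes to the right.

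Immediate early genes, which signals switch on within minutes, had upward changes that lay mainly in the floxed line. Of 37 expressed members, 15 passed 2-fold upward (40.5%) and 1 downward, with a median of 0.93. With a pseudocount of 5 FPKM 7 passed upward and the median was 0.60. The floxed line led all 15 of the upward members, and the median wild type movement was -0.08. Atf3, a stress-induced transcription factor, stood at 1.77 and 0.708 FPKM in wild type and at 1.19 and 8.70 FPKM in floxed cells, so it crossed. Jun, a subunit of the factor AP-1, stood at 4.28 and 3.50 FPKM in wild type and at 6.29 and 28.6 FPKM in floxed cells. Ier5 went from 15.8 to 65.3 FPKM and Ier3 from 13.9 to 43.9 FPKM in floxed cells, with wild type levels of 5.14 and 4.91 FPKM for Ier5 and 11.5 and 9.10 FPKM for Ier3. The downward member was Myc, the growth-promoting transcription factor. It stood at 120 and 126 FPKM in wild type cells and at 150.5 and 71.2 FPKM in floxed cells, with a call at 48 h only and a change of -1.14.

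The CArG box, the site of serum response factor at many immediate early genes, was found in 3 of 32 list members with a promoter (9.38%) and in 107 of 8239 expressed genes (1.299%). Among upward genes it was in 16 of 468 (3.42%), among downward genes in 0 of 88, and among all promoters in 1.47%. Stretches of 30 bases around the matches are shown for the 2 list members with the largest change among those that hold the box. They are Zfp36, which destabilises short-lived mRNAs (chr7:28379267-28379296, minus strand), and Dusp5, a phosphatase of ERK (chr19:53529058-53529087, plus strand).
Zfp36: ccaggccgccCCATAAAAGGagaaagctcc
Dusp5: aatacCCATATTTGGCCTTATATGGgcact
The matches are in capitals, and Dusp5 has 2 of them end to end. Zfp36 stood at 15.5 and 14.0 FPKM in wild type and at 37.4 and 85.9 FPKM in floxed cells, a change of 1.32. Dusp5 had a change of 0.93, at 5.46 and 4.52 FPKM against 4.43 and 7.83 FPKM, and only at 48 h was its floxed level the higher one.

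Genes that p53 induces and inhibitors of growth signalling had upward changes in part. Of 30 expressed p53 targets, 8 passed 2-fold upward (26.7%) and 0 downward, with a median of 0.30, and the floxed line led all 8. That median was 0.19 with a pseudocount of 5 FPKM and 0.47 with a filter of 5 FPKM. Trp53inp1, a stress protein gene induced by p53, stood at 4.72 and 4.45 FPKM in wild type and at 5.24 and 29.4 FPKM in floxed cells. Plk2 went from 1.39 to 11.7 FPKM in floxed cells and was under 0.4 FPKM in wild type cells, while Cd80, a costimulatory surface protein, went from 1.73 to 10.5 FPKM. Cdkn1a, a cell cycle inhibitor on both lists, was 2.26-fold higher in floxed cells at 24 h and 6.52-fold at 48 h, a change of 1.51. Of 31 expressed negative regulators of growth signalling, 10 passed 2-fold upward (32.3%) and 2 downward, with a median of 0.54, which was 0.35 with a pseudocount of 5 FPKM. Cdkn1c, another cell cycle inhibitor, went from 6.60 to 30.03 FPKM in floxed cells, against 1.14 and 1.09 FPKM in wild type cells. Id2, which holds E proteins off DNA, went from 12.96 to 35.3 FPKM in floxed and from 6.17 to 3.54 FPKM in wild type cells.

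Growth genes had small downward changes. In the list of Myc targets and ribosome biogenesis, all 62 expressed members had a change below 0, as had all 62 floxed movements. With trimmed-mean (TMM) factors 60 and 61 were below 0. The median change was -0.46, and 2 members passed 2-fold downward (3.23%; 4 when rescaled to the same sum), against 1.83% of all members. Slc19a1, a folate carrier, stood at 50.1 and 46.9 FPKM in wild type and at 36.1 and 14.8 FPKM in floxed cells. Tmem97, a sterol-regulated membrane protein, went from 92.1 to 45.8 FPKM in floxed cells with 144 and 151 FPKM in wild type cells. Cad, which starts pyrimidine synthesis, and Sord, the sorbitol dehydrogenase, had changes of -0.98 and -0.94, with no call at 24 h. Myc itself, described above, also had a downward change.

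DNA replication genes had downward changes with no member past 2-fold. Of 48 members, 42 had a change below 0, with a median of -0.39 and a median floxed movement of -0.37. Pola1, Pole and Pole2, subunits of the replicative DNA polymerases, had changes of -0.85, -0.85 and -0.84, and Rpa3, which coats single-stranded DNA, of -0.84. None of the 4 was called at 24 h and all were called at 48 h. Mitosis genes had a median of -0.15 over 40 members, with 1 upward and 0 downward past 2-fold. Ttk, a spindle checkpoint kinase, had a change of -0.89, whereas Pttg1, the securin that holds sister chromatids together, had one of 0.60. Cdc25b, a phosphatase that activates cyclin-dependent kinases, had a change of 1.13, but it shares its locus entry and was called at neither time.

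The E-box CACGTG, the site of Myc and its partner Max, was in 12 of 55 genes of the growth list with a promoter (21.8%), in 853 of 8239 expressed genes (10.4%) and in 6.02% of all promoters. It was in 7.69% of upward and 12.5% of downward genes. Exosc5, a subunit of the RNA exosome (chr7:25658903-25659152, plus strand), and Cdk4, a kinase of the early cell cycle (chr10:127063285-127063534, plus strand), had the largest changes among list members that hold it, -0.79 and -0.78. Matches are again in capitals, 1 in Exosc5 and 4 in Cdk4.
Exosc5: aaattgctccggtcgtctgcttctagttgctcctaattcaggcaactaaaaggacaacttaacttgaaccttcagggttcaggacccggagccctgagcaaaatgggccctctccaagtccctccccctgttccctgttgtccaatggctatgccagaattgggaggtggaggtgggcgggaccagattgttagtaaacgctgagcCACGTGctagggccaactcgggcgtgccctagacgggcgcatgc
Cdk4: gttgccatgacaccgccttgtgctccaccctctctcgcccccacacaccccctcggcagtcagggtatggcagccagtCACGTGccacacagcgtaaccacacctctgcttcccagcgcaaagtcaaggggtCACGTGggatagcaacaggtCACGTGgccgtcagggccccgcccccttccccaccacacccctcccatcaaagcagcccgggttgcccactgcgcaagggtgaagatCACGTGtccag
In floxed cells Exosc5 stood at 98.1 and 51.8 FPKM and Cdk4 at 304 and 178 FPKM, against 126 and 116 FPKM and 341 and 344 FPKM in wild type cells.

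In lipid synthesis genes nearly all wild type movements were upward and most floxed movements downward. Of 34 expressed members, 8 passed 2-fold downward (23.5%; 5 with TMM factors or a pseudocount of 5 FPKM) and 1 upward, with a median of -0.50. In wild type cells 33 of the 34 were higher at 48 h, with a median movement of 0.28, and in floxed cells 24 were lower, with a median of -0.22. The count of 33 was the same under each of the 3 rescalings. That of 24 lay between 21 with TMM factors and 26 when rescaled to the same sum, and the floxed median with TMM factors was -0.13. Pmvk, the phosphomevalonate kinase of the sterol pathway, went from 35.4 to 50.6 FPKM in wild type cells and stood at 35.4 and 37.2 FPKM in floxed cells. The 1 gene past 2-fold upward was Me1, the malic enzyme that supplies NADPH, which shares its locus entry and had a change of 1.32.

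Amino acid and ER stress genes had a median change of -0.59. Of 37 expressed members, 5 passed 2-fold downward (13.5%) and 1 upward. With TMM factors 2 passed downward, and with a pseudocount of 5 FPKM 0. Chac1, which degrades glutathione and is a target of the ATF4 pathway, was called higher at 24 h and lower at 48 h in floxed cells, at 6.19 and 8.79 FPKM in wild type and 8.90 and 4.16 FPKM in floxed cells. Slc7a1, a carrier of cationic amino acids, and Stc2, a secreted glycoprotein, had changes of -1.08 and -1.05. Ddit4, an inhibitor of mTORC1, was the upward member, at 22.5 and 19.2 FPKM in wild type and 17.9 and 58.0 FPKM in floxed cells. The list did not share 1 sign, since 12 members lay above 0.

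Progenitor and MLL-linked genes had median changes near that of all genes at the main settings. Of 21 expressed stem and progenitor genes, 2 passed 2-fold upward and 0 downward, with a median of -0.05. That median lay further below 0 with a filter of 5 FPKM and with plain ratios, as given at the end. Kit, the receptor for stem cell factor, went from 11.8 to 5.42 FPKM in floxed cells with 17.9 and 17.1 FPKM in wild type cells. Prom1, a membrane protein of progenitors, was called higher at 24 h and lower at 48 h, with a change of -0.95. Ly6a, known as Sca-1, had a change of 1.37, and Procr of 1.04. Procr reached 1 FPKM only in floxed cells at 48 h, at 2.22 FPKM, and so entered through that group alone. Of 29 expressed genes linked to MLL fusions, 3 passed 2-fold upward and 1 downward, with a median of -0.01. The upward genes were Id2, Hoxa6 at 1.57 and Hoxa5 at 1.51, and both Hoxa genes share a locus entry. Hoxa9 stood at 34.8 and 36.1 FPKM in wild type and at 44.3 and 52.4 FPKM in floxed cells, and Meis1 at 12.975 and 13.2 FPKM against 7.88 and 8.51 FPKM. Of these MLL-linked genes, the large changes were therefore in Id2, Hoxa5, Hoxa6 and Myc.

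Elongation factors, respiratory chain genes and ribosomal proteins had medians near 0. Of 31 elongation genes, 2 passed 2-fold upward and 0 downward, with a median of -0.01. Hexim1, the inhibitor of P-TEFb, stood at 27.0 and 26.9 FPKM in wild type and at 72.2 and 147 FPKM in floxed cells, and Supt4a, a subunit of DSIF, at 85.1 and 78.4 FPKM against 96.8 and 215 FPKM. Cdk12, a kinase of elongating polymerase, had a change of 0.61 and Larp7, which binds 7SK RNA, of -0.55. Respiratory chain genes held none past 2-fold of 70, although Sdha, a subunit of complex II, had a change of -0.84, Ndufb4 of -0.89, Ndufb9 of -0.76 and Ndufa1, all of complex I, of 0.85. Of 79 ribosomal protein genes, 1 passed 2-fold. That gene, Rps27, shares its locus entry and was called at neither time, and Rpl9, with a change of 0.55, was called at 48 h.

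Turned genes, counted over all members and not only outside these lists, included both directions. Ccdc80, a secreted matrix protein gene, went from 3.72 to 2.11 FPKM in wild type and from 0.240 to 8.67 FPKM in floxed cells. Among the 118 genes that were lower and then higher in floxed cells, 67 were led by the floxed line, 43 were opposed and 8 were led by the wild type line, with median movements of 0.95 and -0.42 in floxed and wild type cells. Among the 18 that were higher and then lower, 17 were led by the floxed line, with median movements of -0.83 and 0.13. Hsph1, a chaperone of the heat shock response, was the 1 opposed gene of the 18, at 40.6 and 58.5 FPKM in wild type and 66.3 and 45.4 FPKM in floxed cells. Prelid2, Fam64a and Etv5, the last an ETS transcription factor, had changes of -1.22, -1.10 and -1.07.

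In some genes the wild type line moved at least 2 times as far as the floxed line. Lpl, a lipase of macrophages and other cells, went from 59.9 to 24.7 FPKM in wild type cells and stood at 50.8 and 66.7 FPKM in floxed cells. Axl, a receptor that binds dying cells, went from 17.9 to 7.04 FPKM in wild type cells and stood at 5.09 and 5.68 FPKM in floxed cells. Its 3.51-fold genotype difference at 24 h had no call at 48 h, yet the floxed level differed by only 1.12-fold between the times. Lgals3bp, an interferon-induced secreted glycoprotein, stood at 54.1 and 23.0 FPKM against 10.1 and 12.98 FPKM, and Ifi27l1 at 22.3 and 8.44 FPKM against 12.7 and 18.5 FPKM. Downward changes led by the wild type line were ranked with the same filter as the largest changes, and none reached 2-fold. The largest was -0.67 for P4ha1, a collagen-modifying enzyme. Acat2, an enzyme of acetyl-CoA metabolism, had -0.57 and Trabd -0.37.

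Large differences that did not change cancelled. In 79 genes the lines differed by at least 4-fold at both times, and in 40 of these the change was under 0.5 in size, with 30 higher and 10 lower in floxed cells. Locus entries shared with another gene accounted for 22 of the 40, and 7 were small RNAs. Over all 11158 members these were 2252 and 207. The 6 of largest mean difference were Mir686, Snord91a, Gm5506, Snord85, AA465934 and BC018473, and only the last has a locus entry of its own. Mir686 was at 1392 and 1239 FPKM in wild type cells and listed at 0 in floxed cells at both times, and Snord91a and Snord85 were listed at 0 in wild type cells. BC018473 stood at 0.0417 and 0.0473 FPKM in wild type and at 38.6 and 27.5 FPKM in floxed cells. Prg2, which encodes eosinophil major basic protein, chosen after its values were seen, stood at 1.94 and 1.31 FPKM against 92.6 and 66.6 FPKM, with a change of -0.12. In all, 151 genes differed by 4-fold at 24 h and 69 of them still did so, in the same direction, at 48 h.

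Of the markers of the labelled tissue, Mpo was present in every group, as were Itgam, an integrin of myeloid cells, at 45.8 to 100.1 FPKM and Ptprc, the leukocyte marker CD45, at 43.7 to 78.1 FPKM over the groups. The T cell marker Cd3e, the B cell marker Pax5 and the natural killer marker Ncr1 were at 0 in every group. The 19 lymphoid markers in the table summed to 16.5 to 31.0 FPKM per group, with 4 expressed: Nkg7 at a change of -1.13, Thy1 at 1.505, Cd79b at -0.54 and Lck at -0.24. Thy1 reached 1 FPKM only in floxed cells at 48 h, at 3.57 FPKM, and so entered through that group alone. The 18 erythroid and megakaryocyte markers summed to 3.20 to 5.34 FPKM in 3 groups and to 17.99 FPKM in floxed cells at 48 h, of which Pf4, a platelet and myeloid chemokine, gave 10.8 FPKM. The 23 eosinophil, basophil and mast cell markers summed to 80.2 and 78.3 FPKM in wild type and 266 and 306 FPKM in floxed cells at 24 and 48 h. In that list Epx, the eosinophil peroxidase, went from 11.6 to 5.49 FPKM and Ear11, an eosinophil-associated ribonuclease, from 61.7 to 138 FPKM in floxed cells. Of the 11 expressed members of that list, 7 were lower at 48 h in floxed cells, with a median floxed movement of -0.46. A change below 0 was found in 8, in 6 with TMM factors and in 5 with a pseudocount of 0.1 FPKM. The higher floxed sum at 48 h thus does not give the direction of most members. In bulk RNA, more cells of a type and more RNA per cell cannot be told apart, and the part of such cells in these results was not tested.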

How the data were processed

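Poly(A) RNA of 8 libraries was measured, 2 per group, and the deposited table holds 1 value per gene and group. FPKM values, q-values and fold ratios are the authors': per the submitters' processing notes the tools were Bowtie2, Cufflinks 2.1 and Cuffdiff and the build mm10. The deposited fold ratios equalled the ratios of the FPKM values within 0.1% in 14787 of 14789 genes at 24 h and 14820 of 14823 at 48 h, and FPKM values were used in their place. A joint scaling of the 24 and 48 h groups is not recorded in the sources used here. If the 2 groups of each time were scaled together, scaling that differs between the times cancels in the change of difference, apart from the pseudocount, but not in the movement of 1 line. Read depth is unknown, so no interval was computed.

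With a pseudocount of 1 FPKM, the log2 difference at 24 h was subtracted from that at 48 h, with Python 3.11.15, pandas 2.3.3, numpy 2.4.6 and matplotlib 3.10.9. Calls are the authors' q-values below 0.05. No test of the change itself can be made from 1 value per group, so the planned linear model was not fitted. Scripts were tested on simulated data. Positions come from GENCODE M21 and promoters from RefSeq.

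The members, lists and rules were chosen with earlier results of these data known. Genes named were the 12 largest changes each way at 10 FPKM or more with an unshared locus entry (clone-type symbols and small RNAs left out), the 4 largest of each of 21 lists, the 6 largest each way among genes with opposite calls, the 5 largest each way led by wild type cells, the 6 largest that cancelled, the threshold neighbours, the promoter examples and the markers. Other pseudocounts, scalings, filters and q thresholds were tried. Some genes that these rules select are not reported here.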

Additional observations from a re-analysis of the deposited data

Results flagged for a closer look

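In 19 of the genes named here the floxed line was called lower than the wild type line at 1 time and higher at the other, by the authors' q in the deposited table. This opposite direction flagged them, and 1.22% of all expressed genes had it. Some of these genes, such as Ccdc80 and Prelid2, were named because they had opposite calls, and others because their changes were large. The count of 19 was therefore shaped by the choice of genes and cannot be compared with that share. The change itself was not tested. Lower and then higher in floxed cells were Saa3 with a change of 3.73, Mmp9 with 3.66, Ccdc80 with 3.56, Isg15 with 3.43, S100a9 with 2.87, Ifi204 with 2.86, Atf3 with 2.85, Wfdc17 with 2.79, Lcn2 with 2.76, Zbp1 with 2.45, Mpeg1 with 2.39 and Ifi27l1 with 1.82. Higher and then lower were Chac1 with a change of -1.38, Mpo with -1.23, Prelid2 with -1.22, Fam64a with -1.10, Etv5 with -1.07, Hsph1 with -1.05 and Prom1 with -0.95. Several of the calls lay near the threshold: the q of Mpo was 0.0238 at 24 h and 0.0329 at 48 h, that of Etv5 was 0.0497 at 24 h and that of Hsph1 was 0.0462 at 48 h.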

How the results depend on the processing

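No paired analysis was possible because the table has 1 value per group, and for the same reason no replicate could be left out and no replicate block fitted. Counts are compared within 1.5 times and list medians within 0.1 or 1.5 times. With a pseudocount of 0.1 FPKM the downward count was 402, the erythroid median 1.82 and the eosinophil median 0.0567 in place of -0.12. With 5 FPKM there were 340 upward and 89 downward genes, 334 led by floxed cells, 43 by wild type cells and 51 opposed, and medians of 0.47 (interferon), 0.60 (immediate early), 0.19 (p53), 0.25 (erythroid), -0.21 (lymphoid) and 0.35 (negative regulators). Rescaled to the same sum, 353 genes were downward, with medians of -0.23 (PAF1 complex), -0.12 (elongation), 0.20 (p53), -0.23 (eosinophil), -0.17 (progenitor), -0.12 (MLL), -0.26 (mitosis), -0.11 (respiratory chain) and -0.0757 (ribosomal proteins). Under quantile normalization the respiratory chain and ribosomal medians were -0.11 and -0.11. A filter of 5 FPKM gave 0.69 (interferon), 0.47 (p53), 2.31 (erythroid), -0.83 (lymphoid) and -0.36 (progenitor), and no filter gave 0 (eosinophil), 0.0061 (erythroid) and 0 (lymphoid). Genes with a locus entry of their own gave 128 downward genes and an elongation median of 0.10. Chosen after seeing the data, leaving out small RNAs gave 132 downward genes, and plain ratios over genes of 1 FPKM or more in all groups gave 577 upward and 299 downward genes and medians of 0.75 (interferon), -0.81 (lymphoid) and -0.36 (progenitor). With q below 0.01, 1277 differences widened, 244 narrowed and 73 turned. TMM factors moved none of the 21 list medians and none of the 5 counts past these limits, with 839 upward and 152 downward genes. The cause of these shifts was not tested.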

Other observations

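The share of upward changes and the median change varied with the length of the gene. Among protein-coding genes split into 5 equal bins by their span in GENCODE M21, upward changes of 2-fold made up 10.3% of the shortest bin (206 of 1993 genes) and 3.26% of the longest (65 of 1993). The bins between had 6.53%, 5.42% and 3.71%. The median change went from 0.07 in the shortest bin to -0.16 in the longest, against -0.07 over all genes, while its median size was 0.34 in both. The median floxed movement went from 0.05 to -0.15 and the wild type movement from -0.03 to -0.00. The sign of the change in the shortest bin was not recomputed under other scalings. These are descriptions across genes of the same 4 group values.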
